A study of Mus musculus with 7 samples.

Results

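The complement genes described here were 9 genes of the follicular dendritic cell (FDC) expression table, taken by symbol from the 21176 genes listed: the components C1ra, C1s1, C4b, C2, C3, Cfb and Cfp and the membrane inhibitors Cd55 and Cd59a. All 9 were found. RNA was sequenced from FDCs sorted by flow cytometry out of the popliteal lymph nodes of male mice aged 8 to 12 weeks that had not been immunized. There were 4 wild-type (WT) samples and 3 samples from mice lacking Ngfr (Ngfr KO), the gene of a neurotrophin receptor, and each sample was a pool of nodes from several mice. Strain, the construction of the Ngfr allele and the number of mice in a pool are not given in the sources used here. The comparison asks which of these transcripts differ in FDCs when Ngfr is lost.

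Complement is a cascade of plasma proteases that tags particles with fragments of C3 and C4. The classical pathway starts when C1q binds antibody. Its partner protease C1r then activates C1s, which cleaves C4 and C2. The alternative pathway builds on C3 with factor B and is stabilised by properdin. Host cells are shielded by membrane proteins, among them CD55, which takes C3 convertases apart, and CD59, which blocks the membrane attack complex. FDCs are stroma of B-cell follicles and retain C3-tagged immune complexes through complement receptors, and stromal cells as well as the liver make complement components.

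The stretches upstream of 3 of these genes are shown, for the member with the largest rise (C1s1), the one with the largest fall (Cd59a) and the one with the highest level per length in WT (Cd55). Each is the 250 bases before the start of transcription on the gene's own strand, 5′ to 3′, from RefSeq on GRCm38.p6, with searched motifs in capitals.
C1s1, chr6:124542360-124542609, minus strand: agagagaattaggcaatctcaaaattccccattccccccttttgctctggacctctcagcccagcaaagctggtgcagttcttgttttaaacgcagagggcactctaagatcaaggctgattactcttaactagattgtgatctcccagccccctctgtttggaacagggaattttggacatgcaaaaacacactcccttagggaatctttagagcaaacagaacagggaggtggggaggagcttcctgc
Cd59a, chr2:104095551-104095800, plus strand: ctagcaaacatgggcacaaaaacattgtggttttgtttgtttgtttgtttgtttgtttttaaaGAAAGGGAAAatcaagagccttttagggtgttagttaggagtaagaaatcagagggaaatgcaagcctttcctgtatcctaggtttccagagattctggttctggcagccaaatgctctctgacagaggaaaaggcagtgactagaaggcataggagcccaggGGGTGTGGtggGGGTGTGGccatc
Cd55, chr1:130462745-130462994, minus strand: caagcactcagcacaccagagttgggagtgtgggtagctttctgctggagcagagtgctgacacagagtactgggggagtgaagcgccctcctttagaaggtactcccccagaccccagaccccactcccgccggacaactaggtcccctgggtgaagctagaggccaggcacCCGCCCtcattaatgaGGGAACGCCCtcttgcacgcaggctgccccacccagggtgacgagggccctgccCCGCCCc

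On both strands, 6 motifs were searched: the κB motif (GGGA, any 4 bases, CC), the STAT motif TTCNNNGAA (GAS), the interferon response core (GAAA, any 2 bases, GAAA), the GC box GGGCGG, the CACCC box CCACACCC and the TATA box TATAAA. The C1s1 stretch held none of them, which says only that these letters are not in this window. The window of another RefSeq start of C1s1, not shown because it overlaps an annotated exon, held the κB motif 35 to 26 bases before that start. The Cd59a stretch held the interferon response core 187 to 178 bases before the start and the CACCC box at 24 to 17 and again at 13 to 6 bases before it. Of 32851 RefSeq windows of this length, 2.98% held the first motif and 3.20% the second. The Cd55 stretch held the κB motif at 61 to 52 bases before the start, as did 17.6% of all windows, and the GC box at 77 to 72 and at 7 to 2 bases, as did 32.7%. The 3 matches of the κB motif upstream of C3 lay at 197 to 188, 33 to 24 and 10 to 1 bases before its start. A match is a description of letters and not of a bound site. RefSeq windows were matched for 6 of the 9 members; C2, C4b and Cfb were not matched.

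The libraries held 17244925 to 18873542 reads in WT and 20741770 to 21538400 in Ngfr KO, so that every Ngfr KO library was deeper. Values are read counts scaled by 1 factor per sample, and a value of 1 stood for 230 to 295 reads. Mitochondrial transcripts took 5.55% to 7.42% of the reads in WT and 3.14% to 4.97% in Ngfr KO. All 12 FDC markers were above 0 in every library, and 11 of 12 were called higher in Ngfr KO. All 11 tested endothelial markers of 12 were called lower. The targeted gene, Ngfr, had values of 0.377, 0.677, 1.30 and 1.14 in WT replicates 1 to 4 and 0.305, 0.353 and 0.184 in Ngfr KO replicates 1 to 3 (log2 change -0.52, SE 0.18, limma adjusted p = 0.0431), and its reads were not absent from any Ngfr KO library. That call was lost in 13 of 15 alternatives.

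Among the members, 3 were called higher in Ngfr KO and 1 lower: transcripts of the classical pathway proteases C1s1, C1ra and C2 rose, and that of the membrane inhibitor Cd59a fell. The remaining members, C4b, C3, Cfb, Cfp and Cd55, were not called. All 9 passed the filter on low values. The share called, 4 of 9, stands beside 34.2% of all 8326 genes tested (18.3% called higher, 15.8% lower), so the members were not called much more often than other genes. The groups did not overlap in 4 members, against 40.9% of all genes. The median log2 change of the members was 0.45, and 0.02 over all genes tested. With quantile normalization the split was 2 higher and 2 lower, as Cd55 was called and C1ra was not.

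**Figure D1:**
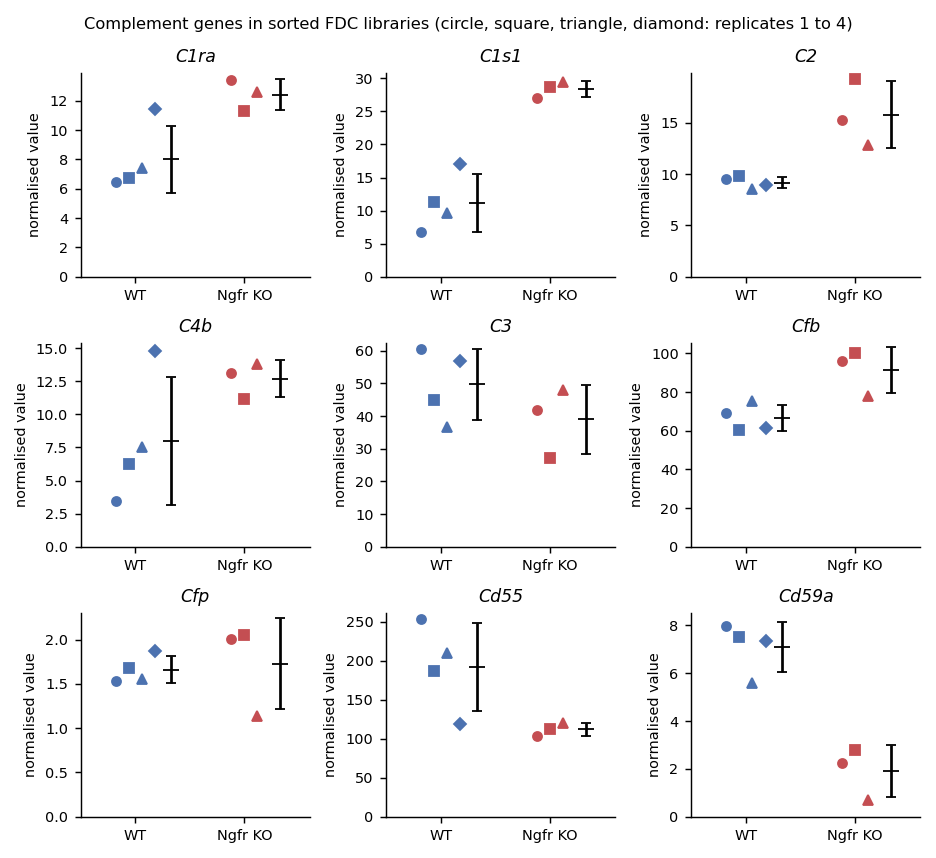
Normalised value (y axis, from 0) of each complement member in the 4 WT (blue) and 3 Ngfr KO (red) libraries; marker shape gives the replicate number, and the black bar the mean ± SD. C1s1, C2 and Cfb lie higher and Cd59a lower in all Ngfr KO libraries. Among the members whose groups overlap, WT replicate 4 lies within the Ngfr KO range for C1ra, Cfp and Cd55 and above it for C4b and C3.

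C1s1 (ENSMUSG00000038521, chromosome 6, 124530345 to 124542359, minus strand), the protease that cleaves C4 and C2, had values of 6.73, 11.3, 9.61 and 17.05 in WT replicates 1 to 4. In Ngfr KO replicates 1 to 3 it had 27.0, 28.7 and 29.4. The lowest Ngfr KO library lay well above the highest WT library, and the Ngfr KO libraries were closer to one another than the WT libraries. Values averaged 11.2 ± 4.3 over WT libraries (SD, n = 4) against 28.4 ± 1.2 over Ngfr KO libraries (SD, n = 3), a 2.54-fold ratio, and limma gave a difference of 1.34 on the log2 scale (SE 0.25, adjusted p = 0.00219). The call held in all 15 alternatives tried.

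C1ra (ENSMUSG00000055172, chromosome 6, 124512405 to 124523443, plus strand), the protease that activates C1s, lies 6901 bases from C1s1 on the opposite strand. Its values were 6.49, 6.73, 7.39 and 11.4 in WT and 13.4, 11.3 and 12.6 in Ngfr KO. The groups overlapped, because WT replicate 4 lay just above Ngfr KO replicate 2. Limma put the log2 difference at 0.60 (SE 0.20, adjusted p = 0.0331). This call was lost in 9 of 15 alternatives, with edgeR on recovered reads among them (adjusted p = 0.0611). It was lost when any 1 library other than WT replicate 4 was left out, with limma adjusted p-values up to 0.112. The ratio of C1s1 to C1ra values in the same library, in which gene length cancels between libraries, was 1.04 to 1.67 in WT against 2.01 to 2.54 in Ngfr KO, without overlap; the pair was chosen after the values were seen.

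C2 (ENSMUSG00000024371, chromosome 17, 34862604 to 34898265, minus strand) encodes the protease subunit of the classical C3 convertase. WT values were 9.51, 9.79, 8.51 and 8.91, and Ngfr KO values 15.2, 19.3 and 12.8. The WT libraries were nearly level, and every Ngfr KO library lay above them. Values averaged 9.18 ± 0.58 over WT libraries (SD, n = 4) against 15.8 ± 3.3 over Ngfr KO libraries (SD, n = 3), and limma gave a difference of 0.71 on the log2 scale (SE 0.17, adjusted p = 0.00958). C2 was called in all 15 alternatives.

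C4b (ENSMUSG00000073418, chromosome 17, 34728380 to 34743882, minus strand), whose product is the C4 that C1s cleaves, was not called. Its values were 3.46, 6.28, 7.53 and 14.8 in WT and 13.1, 11.2 and 13.8 in Ngfr KO. WT replicate 4 was the highest of all 7 libraries, and the other WT libraries lay below every Ngfr KO library. Limma put the log2 difference at 0.75 (SE 0.32, adjusted p = 0.0882). Without WT replicate 4 the log2 change was 1.07 and the limma adjusted p 0.00858. C4a, a near-identical neighbour, had values of 0.156 to 0.595, and how reads shared by the pair were counted is not given in the sources used here, so the level of C4b is uncertain.

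C3 (ENSMUSG00000024164, chromosome 17, 57203970 to 57228136, minus strand), the protein on which all pathways meet, was not called either. Values were 60.4, 45.0, 36.5 and 56.8 in WT and 41.9, 27.1 and 47.9 in Ngfr KO. The groups overlapped: 2 Ngfr KO libraries lay within the WT range and replicate 2 lay below it. Limma put the log2 difference at -0.35 (SE 0.25, 95% interval -0.89 to 0.18, adjusted p = 0.279), and no alternative called it. The interval still holds changes of both signs.

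Cfb (ENSMUSG00000090231, chromosome 17, 34856374 to 34862518, minus strand), the protease of the alternative pathway, lies 85 bases from C2 on the same strand. It had values of 69.4, 60.6, 75.2 and 61.5 in WT and 96.0, 100.1 and 77.9 in Ngfr KO. All Ngfr KO libraries lay above all WT libraries, by a small margin for replicate 3. Limma put the log2 difference at 0.45 (SE 0.20, adjusted p = 0.102), so the gene was not called. It was called only without Ngfr KO replicate 3 (log2 change 0.56, adjusted p = 0.0349). A joint gene model, Gm20547, overlaps C2 and Cfb on their strand and is not analysed here, and reads in shared exons may be split.

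Cfp (ENSMUSG00000001128, chromosome X, 20925454 to 20931555, minus strand), which encodes properdin, had the lowest mean in both groups, although Cd59a was lower in Ngfr KO replicate 3. Values were 1.53, 1.68, 1.56 and 1.87 in WT and 2.00, 2.05 and 1.14 in Ngfr KO. Ngfr KO replicates 1 and 2 lay above and replicate 3 below all WT libraries. Limma put the log2 difference at 0.02 (SE 0.16, 95% interval -0.33 to 0.37, adjusted p = 0.933).

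Of the inhibitors, Cd59a (ENSMUSG00000032679, chromosome 2, 104095801 to 104115354, plus strand) was called lower. It had values of 7.97, 7.50, 5.59 and 7.33 in WT and 2.24, 2.80 and 0.681 in Ngfr KO. Every Ngfr KO library was at or under 2.80, and the lowest was replicate 3. Values averaged 7.10 ± 1.04 over WT libraries (SD, n = 4) against 1.91 ± 1.10 over Ngfr KO libraries (SD, n = 3), 3.73-fold higher in WT, and limma gave a difference of -1.55 on the log2 scale (SE 0.25, adjusted p = 0.00115). The call held in all 14 alternatives in which Cd59a was tested, while the log2 change was -0.82 at a pseudocount of 5, -2.03 at 0.1 and -1.80 by edgeR. Its paralog Cd59b had values of 0.0877 to 0.248 and no change was called by edgeR (adjusted p = 0.832).

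Cd55 (ENSMUSG00000026399, chromosome 1, 130439027 to 130462744, minus strand) was the member with the highest values. They were 253, 187, 209 and 118 in WT and 104, 113 and 119.9 in Ngfr KO. In WT replicates 1 to 3 Cd55 stood above all Ngfr KO libraries, and WT replicate 4 lay among them. Limma put the log2 difference at -0.72 (SE 0.27, adjusted p = 0.0567), and the gene was not called. It was called without WT replicate 4 (log2 change -0.93, limma adjusted p = 0.0157) and with quantile normalization (log2 change -0.96, limma adjusted p = 0.0157). An antisense gene at its start, Gm16083, had values of 0.0160 to 0.217, and strand use in the counting is not given in the sources used here.

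**Figure D2:**
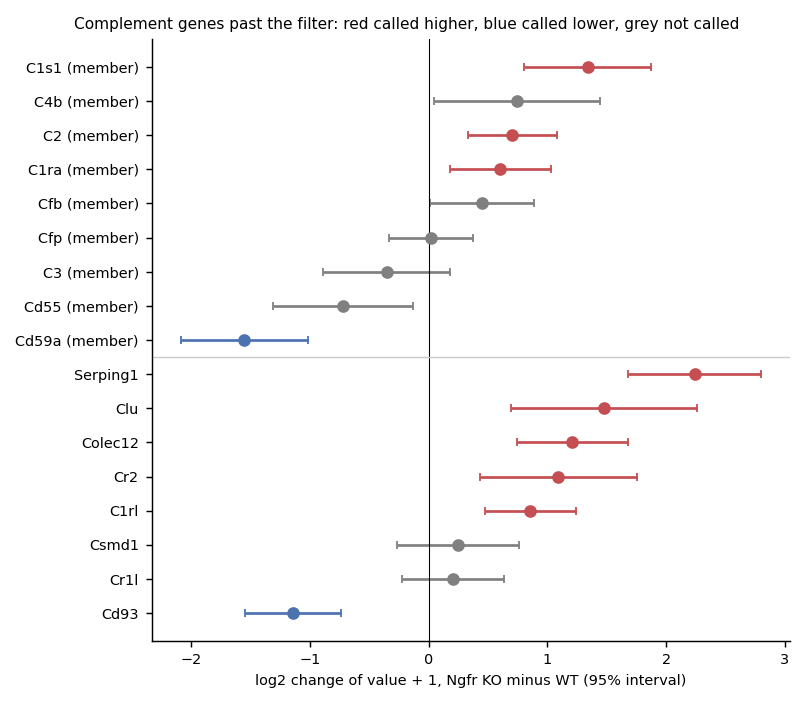
Log2 change of value + 1 (x axis, Ngfr KO minus WT, with the limma 95% interval) for the 9 members and the 8 other complement genes past the filter. Red points were called higher, blue points lower and grey points not called at an adjusted p of 0.05; Serping1 stands farthest to the right at 2.24 and Cd59a farthest to the left at -1.55.

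To compare levels between genes, values were divided by the merged exon length of each gene, which gives a value per kb. In WT, Cd55 (39.5 ± 11.6 per kb, SD, n = 4) and Cfb (23.6 ± 2.5 per kb) were the most abundant members, and their libraries overlapped. C3 followed at 9.66 ± 2.13 per kb, apart from both Cfb and the next gene. Cd59a, C1s1, C1ra, C2, C4b and Cfp then ran from 3.92 to 0.957 per kb, and each overlapped the next in this order. In Ngfr KO the order began with Cfb (32.3 ± 4.2 per kb, SD, n = 3), whose libraries all lay above those of Cd55 (23.1 ± 1.7 per kb). C1s1 came next at 9.07 ± 0.40 per kb and overlapped C3 at 7.58 ± 2.08 per kb. Cd59a moved from the fourth place in WT to the eighth, at 1.05 ± 0.61 per kb. Whether a change of place differs from the spread was not tested.

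**Figure D3:**
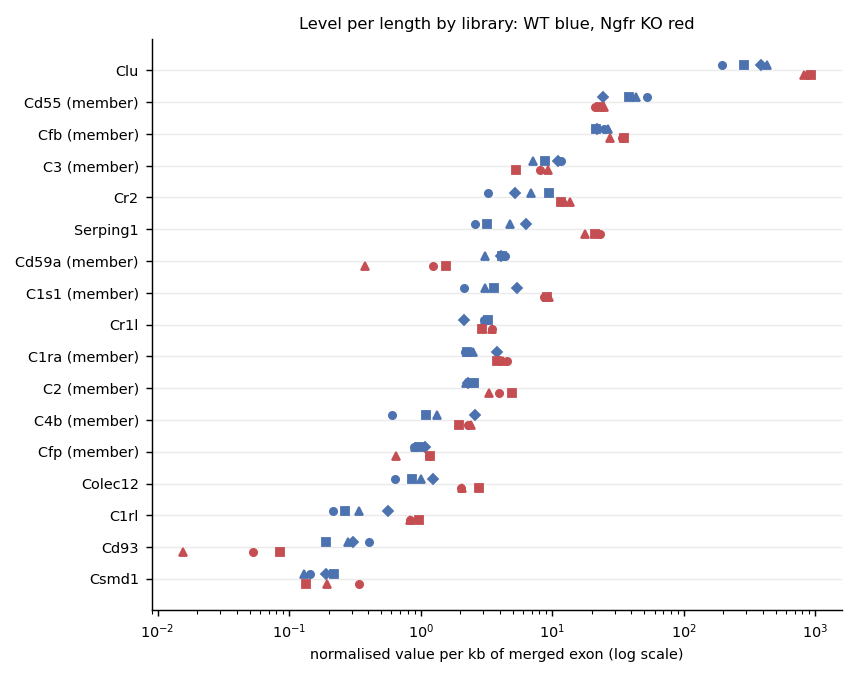
Normalised value per kb of merged exon (x axis, log scale) of 17 complement genes in each library, WT in blue and Ngfr KO in red, ordered by the WT mean; marker shape gives the replicate number. Clu lies above all others, and among the members Cd55 and Cfb lie highest in both groups.

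Other genes of the pathway were taken from a list of 46, of which 32 were in the table and 8 passed the filter. Of these 8, 5 were called higher and 1 lower, with a median log2 change of 0.97, beside 34.2% of all genes called (18.3% higher, 15.8% lower) and their median of 0.02. This split depends on the filter. The gene called lower, Cd93, passed only through its WT libraries, and C1rl would not have passed on its WT libraries alone. Without the filter 32 genes of the list were tested, and 3 were called higher and 3 lower. Serping1, the inhibitor of C1r and C1s, had values of 6.02, 7.43, 11.0 and 14.8 in WT and 53.5, 49.0 and 41.4 in Ngfr KO. All Ngfr KO libraries stood far above all WT libraries (log2 change 2.24, SE 0.26, limma adjusted p = 3.11e-04). The ratio of Serping1 to C1s1 in the same library, also chosen after the values were seen, was 0.660 to 1.15 in WT against 1.41 to 1.98 in Ngfr KO.

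C1rl, a protease related to C1r, was called higher too: its values were 0.650 to 1.69 in WT against 2.49 to 2.90 in Ngfr KO (log2 change 0.86, limma adjusted p = 0.00405). Its log2 change was 0.34 at a pseudocount of 5, 1.34 at 0.1 and 1.41 by edgeR. The collectin Colec12, a scavenger receptor, had 5.53 to 10.9 in WT against 17.7 to 24.2 in Ngfr KO (log2 change 1.21, limma adjusted p = 0.00190). Clu, which binds the terminal complex, and the complement receptor gene Cr2, which is also on the FDC marker list, were called higher with log2 changes of 1.48 (limma adjusted p = 0.00914) and 1.09 (limma adjusted p = 0.0168). Without the filter both calls were lost, with limma adjusted p-values of 0.358 for Clu and 0.0784 for Cr2. In these 4 genes and Serping1 the groups did not overlap, against 40.9% of all 8326 genes tested, of which 1881 had every Ngfr KO library above every WT library.

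Cd93, a receptor once assigned to C1q and expressed on endothelium, was called lower and had 1.28 to 2.72 in WT against 0.104 to 0.570 in Ngfr KO (log2 change -1.14, limma adjusted p = 0.00133). At this low level the log2 change moved with the scale, from -0.38 at a pseudocount of 5 to -2.43 by edgeR, and the WT mean was 5.79-fold the Ngfr KO mean. Cr1l, the rodent membrane inhibitor Crry, had 22.3 to 33.7 in WT against 30.4 to 36.4 in Ngfr KO and was not called (log2 change 0.21, 95% interval -0.22 to 0.64, limma adjusted p = 0.433).

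Several parts of the cascade were at the edge of detection. C1qa, C1qb and C1qc, which encode the antibody-binding part of C1, had at most 7, 41 and 22 reads in any library, whereas C1ra had 1668 to 3695 reads. C1qb had 41, 41, 32 and 3 reads in WT and 1, 0 and 0 in Ngfr KO (edgeR adjusted p = 0.0274). The terminal component gene C6 had at most 4 reads. C5ar2, a receptor of C5a, was better detected but did not pass the filter. It had 302, 228, 317 and 221 reads in WT and 75, 59 and 32 in Ngfr KO. Its edgeR log2 change was -2.33 (adjusted p = 0.00677). Susd4, a membrane regulator, had 14 to 36 reads in WT and 0 in each Ngfr KO library, which allows values of up to 0.0102 to 0.0120 there and covers counting error only (edgeR adjusted p = 0.0172). These genes were chosen after their values were seen. On the recovered reads edgeR tested 24 of the 46 genes and called 5 higher and 4 lower, beside 15.2% of all genes called.

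Several complement genes differed between the groups in the same direction as markers of cell types. In a bulk sample fewer cells of a type and less RNA per cell cannot be told apart. The summed value of the 12 endothelial markers was 190.9, 149, 185 and 146 in WT and 60.1, 65.5 and 34.98 in Ngfr KO, and none of the markers was at 0 in any library. Cd59a amounted to 4.18%, 5.02%, 3.03% and 5.01% of that sum in WT and 3.72%, 4.27% and 1.95% in Ngfr KO. On that measure the groups overlapped. Cd93 also overlapped, at 0.857% to 1.43% in WT against 0.298% to 0.870% in Ngfr KO. Cd55 did not: it was 80.8% to 133% of the endothelial sum in WT and 172% to 343% in Ngfr KO. The part of endothelial transcripts in the lower Cd59a and Cd93 was not tested.

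The summed FDC markers were 1143 to 3756 in WT against 4890 to 7542 in Ngfr KO. Without Cxcl13, the most abundant of them, the sums were 283, 587, 842 and 851 in WT and 2159, 3080 and 2265 in Ngfr KO. C1s1 amounted to 1.14% to 2.38% of the sum without Cxcl13 in WT and 0.931% to 1.30% in Ngfr KO, with overlapping groups. C2 amounted to 1.01% to 3.35% in WT against 0.567% to 0.705% in Ngfr KO, without overlap, but overlapped as a percent of the sum with Cxcl13 (0.237% to 0.832% against 0.170% to 0.355%). On the sum without Cxcl13, C1ra was lower in Ngfr KO without overlap (0.878% to 2.29% against 0.366% to 0.621%), as were C4b, Clu and Cr2. With Cxcl13 included C1ra, C4b, Clu and Cr2 overlapped. For Cr2, itself one of the summed markers, its own value was left out of each sum. Without Cxcl13, Serping1 amounted to 1.27% to 2.12% in WT against 1.59% to 2.48% in Ngfr KO, with overlap, and did not overlap with Cxcl13 included (0.253% to 0.527% against 0.550% to 1.09%). Of 7 tested fibroblast markers, Dcn, Ccl19 and Pdgfra were called higher and Thy1 lower. Col1a2, Lum and Pdpn were not called. The sum of all 10 was 74.5 to 151 in WT against 236 to 339.9 in Ngfr KO, with Dpt at 0 in some libraries. Most of that sum came from Dcn (37.5 to 69.3 in WT, 151 to 248 in Ngfr KO) and Ccl19 (20.1 to 52.6 in WT, 65.8 to 100.1 in Ngfr KO). It therefore does not describe the fibroblast markers as a set. The myeloid sum of 11 genes overlapped, at 21.5 to 104 in WT against 30.5 to 78.7 in Ngfr KO, with Adgre1, S100a8, S100a9 and Tyrobp at 0 in some libraries. S100a8 and S100a9 had values of 17.4 and 12.2 in WT replicate 1 and of 45.6 and 32.5 in WT replicate 4. In WT replicates 2 and 3 they had at most 0.0225 and 0.131, and in Ngfr KO at most 0.602 and 0.218. Of 6 tested myeloid markers, Lyz2 and Cd14 were called higher and Mrc1 lower, so the overlap of the sum does not describe each marker. The part of these markers in the higher C1s1, C1ra, C2 and Serping1 was not tested. These measures were added after the values were seen.

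**Figure D4:**
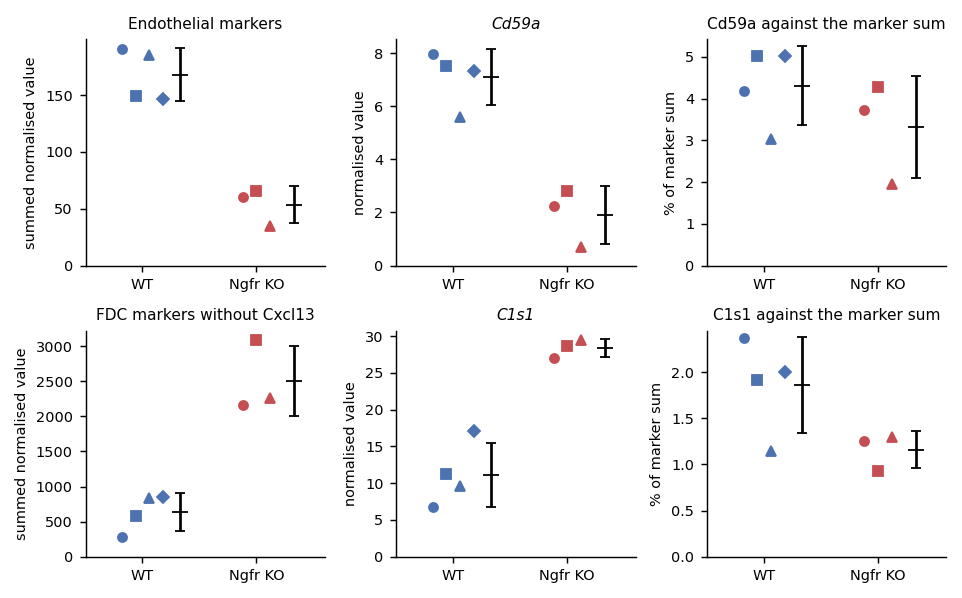
Upper row, the summed value of endothelial markers, the value of Cd59a and Cd59a as a percent of that sum; lower row, the same for FDC markers without Cxcl13 and C1s1 (WT blue, Ngfr KO red, y axes from 0, black bars mean ± SD). Both genes separate the groups as values, and both overlap as a percent of the marker sum.

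WT replicate 4 lay nearest to the Ngfr KO mean among WT libraries for 4 of the 9 members (C1ra, C1s1, C4b and Cd55). Over all genes tested it was the nearest WT library for 29.7% of genes, and WT replicate 3 for 35.9%. Leaving out WT replicate 4 gave 6 called members, 4 higher and 2 lower, with C4b and Cd55 added. Leaving out any other single library gave 3 or 4.

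**Figure D5:**
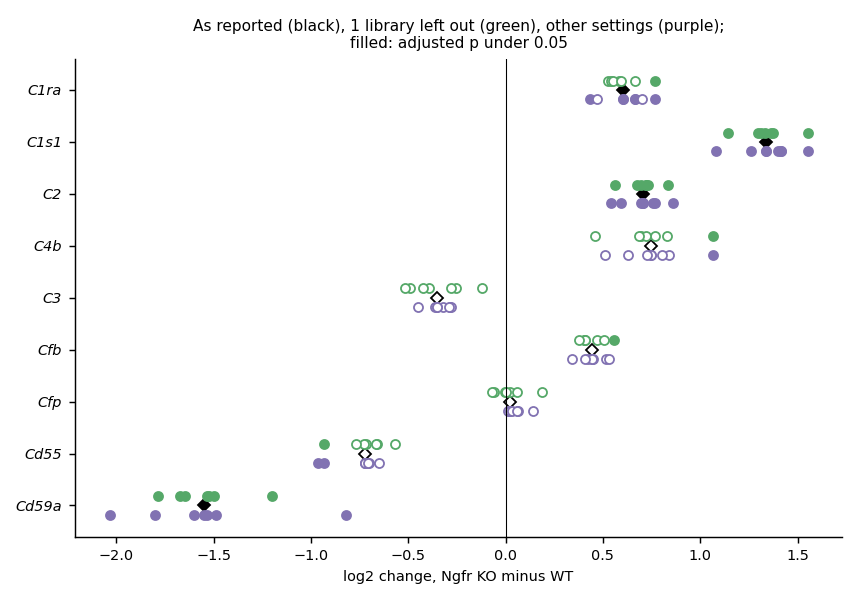
Log2 change (x axis, Ngfr KO minus WT) of each member as reported (black diamond), with 1 library left out (green) and under other settings (purple); filled symbols have an adjusted p under 0.05. C1s1, C2 and Cd59a are filled throughout, while C1ra, C4b, Cfb and Cd55 change between filled and open.

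The genes whose profile over the 7 libraries was most like that of a member were found among 8310 genes by the root mean square difference of centred log2(value + 1). For C1s1 they were Sulf1 (0.12) and Tnfsf11 (0.17), for C1ra Wdr77 (0.082) and Cyb561 (0.095), and for C2 Btrc (0.062) and Snx17 (0.068). For Cd59a they were Phldb2 (0.19) and Creg2 (0.21), and for Cd55 Xlr5a (0.11) and Cpt1a (0.13). C4b was closest to Sgce and Emp2 (both 0.21), C3 to Map4k5 and Pkd2 (both 0.12), Cfb to Mfap3 (0.050) and Tspan17 (0.051) and among the genes closest to Cfp was Tmem131l (0.056). Tnfsf11, the gene of RANKL and one of the FDC markers, had 0.396 to 1.78 in WT against 2.60 to 3.96 in Ngfr KO.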

How the data were processed

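RNA was measured in 7 pooled samples of sorted FDCs, 4 WT and 3 Ngfr KO, grouped by title. The deposited values are 1 normalised signal for each gene and sample, labelled TMM (trimmed mean of M values). SMART-Seq v4 amplification and Nextera XT library preparation are named per the labels. The submitters' processing notes name bcl2fastq 2.20.0.422 and build mm10; aligner, counting program and annotation are not given in the sources used here. In every sample 100% of values above 0 were whole multiples of 1 step (within 0.05 of a step), which recovered the reads. The 3-read floor and all intervals on reads cover counting error only.

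Limma 3.58.1 in R 4.3.3 (lmFit, eBayes with trend) was run on log2(value + 1) for genes that reached a value of 1 in 3 or more samples, so changes of low genes are understated. Genes with a Benjamini-Hochberg adjusted p under 0.05 over all 8326 genes were called. Alternatives were pseudocounts of 0.1 and 5, no filter, a stricter filter (at least 10), quantile normalization, median ratio scaling, the replicate number as a block, edgeR 4.0.16 on recovered reads and leaving out each library. Ngfr, under the filter, was added to the fit. In 10 simulated data sets with 200 genes changed 4-fold, limma recovered 97.05% and 7.79% of its calls were unchanged genes. For edgeR these shares were 98.3% and 3.39%. In the real data far more genes were called, and no member's group means differed by as much as 4-fold. No simulated library was made to stand apart from its group. The simulation therefore does not give the power to call the members.

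Members and lists were chosen with earlier results of these data known. Named were the members, Ngfr, genes of the wider list that were called or had a mean of at least 10, and the 2 genes most like each member; others were chosen after their values were seen. Of these, 1 gene of the wider list and 1 gene like a member are not reported here, and the former is left out of the list's counts. Coordinates and exon lengths came from GENCODE M21 on GRCm38, the same assembly as mm10, by identifier (21118 matched, 58 did not).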

Additional observations from a re-analysis of the deposited data

How the results depend on the processing

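C1s1, C2 and Cd59a kept their direction and their call in every alternative in which each was tested, as did C1rl, Colec12, Serping1 and Cd93. C3 was called in none and C1ra in 6 of 15. The count of called members ran from 3 to 6 and that of the wider list from 4 (stricter filter) to 9 (edgeR), against 4 and 6 as reported. The count of all called genes, 2844, was 535 with the stricter filter, which tested 1297 genes, and 1614 to 3006 with 1 library left out; it was 1870 without WT replicate 1, 1803 without Ngfr KO replicate 1 and 1614 without Ngfr KO replicate 2, and the cause was not tested. For Ngfr the log2 change with an adjusted p above 0.05 was -1.26 at a pseudocount of 0.1, -0.52 without a filter or with the stricter one, -0.47 with quantile normalization, -0.49 with median ratio scaling, -0.45 with the replicate block and -1.55 by edgeR. With 1 library left out it ran from -0.66 to -0.41, and was called only without WT replicate 1 (-0.66). Signs turned only for genes near 0 when 1 library was left out: Cfp ran from -0.069 to 0.19 and Csmd1 from -0.042 to 0.49. The sources used here do not state that replicate numbers pair the samples. Deviations of same-numbered samples correlated at 0.265, -0.0195 and 0.00625 over genes, and not every sample correlated best with its own number. The value for number 1 was the highest of all pairs, and with so few numbers this check cannot exclude a pairing. The replicate block, in which WT replicate 4 has no partner, called 2717 genes, 6 members (C4b and Cd55 added) and 6 of the wider list. Because that library has no partner, the block takes it out of the comparison. The log2 changes therefore equal those without WT replicate 4, as for C4b (1.07) and Cd55 (-0.93). The added calls of C4b and Cd55 are not separate evidence, although both fits count among the 15 alternatives. Depth limits what can be said of the C1q genes and C6, which had few reads.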
